A study of Mus musculus with 5 samples.

Results

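The genes described here are 30 glutamate receptor and glutamate transporter genes of the mouse retina, chosen by gene symbol from the table of estimated counts, which holds 33636 rows. They are the AMPA subunits Gria1 to Gria4, the kainate subunits Grik1 to Grik5, the delta subunit Grid1, the NMDA subunits Grin1, Grin2a to Grin2d, Grin3a and Grin3b, the metabotropic receptors Grm2, Grm3, Grm4, Grm5, Grm7 and Grm8, the vesicular transporters Slc17a6 to Slc17a8 and the plasma membrane transporters Slc1a1, Slc1a2, Slc1a3 and Slc1a7. Each symbol had 1 row, and all 30 genes passed the count filter (over 10 in 2 or more libraries). The retinas came from male wild-type C57BL/6J mice aged 42 days. In each mouse the right eye wore a diffuser goggle for 2 weeks from postnatal day 28 (form-deprivation myopia, FDM), and the uncovered left eye of the same mouse was the control. There were 2 FDM libraries (FDM 1 and FDM 3) and 3 control libraries (Control 1, Control 2 and Control 3), each from 1 retina. Same-numbered libraries are the 2 eyes of 1 mouse by the study's numbering, in which Control 2 has no partner, since the authors left out its FDM library for read duplication. The labels give a refractive error at day 42 of 0.976 and 0.2745 dioptres for the first and the second FDM sample (the latter numbered 2 in the labels) and of 2.4455, 3.1505 and 2.465 for Control 1, 2 and 3. The control eyes share the animal, the head-mounted pedestal and the housing with the FDM eyes, and they are not retinas of untreated mice.

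Glutamate is the transmitter of photoreceptors, bipolar cells and ganglion cells. Vesicular transporters load it into synaptic vesicles, ionotropic receptors (AMPA, kainate and NMDA) open cation channels when it binds, metabotropic receptors act through G proteins, and plasma membrane transporters of neurons and Müller glia clear it from the extracellular space. In the retina, OFF bipolar cells respond through ionotropic receptors and ON bipolar cells through the metabotropic receptor mGluR6, encoded by Grm6, which is not among the 30 genes and is given below with the related families. The comparison asks whether the transcripts of this machinery differed between form-deprived and control retinas.

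Library totals ran from 40599047 to 56534931 estimated counts. Values are given as counts per 1000000 (CPM) after TMM scaling, and levels of different genes are compared per kilobase (kb) of the union of their annotated exons. This union can be longer than the longest coding transcript, so an order of genes by level can depend on the length used. All lists of retinal markers (rod, cone, bipolar, amacrine, horizontal, ganglion and Müller cells) were detected in every library, and no gene of them had an unadjusted p under 0.05. Markers of neighbouring tissues differed widely. The 9 lens genes found in the table summed to 2022 CPM in FDM 3 and to between 2.93 and 19.9 CPM in the other 4 libraries, 8 pigment epithelium genes summed to 255.1 and 218.0 CPM in Control 2 and Control 3 and to between 56.1 and 72.6 CPM in the others, and 6 skeletal muscle genes summed to 54.1 CPM in Control 3 and to between 7.24 and 8.63 CPM elsewhere. In whole retina, fewer cells of a type and less RNA per cell cannot be told apart.

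The 30 genes spanned a 1254-fold range of mean level per kb. Slc17a7, the vesicular transporter VGLUT1 of photoreceptor and bipolar cell terminals, was the most abundant at 350.1 ± 45.4 CPM per kb (SD, n = 5 libraries), and Slc1a7, the photoreceptor and bipolar cell transporter EAAT5, followed at 49.9 ± 4.64. Slc1a2 (22.4 ± 1.88), Grik5 (21.9 ± 2.08) and Slc1a3 (19.8 ± 0.977) had overlapping ranges over the 5 libraries, and Grik1 came next at 17.1 ± 0.679. Grm3 was the least abundant at 0.279 ± 0.0249 CPM per kb, with 36 to 49 counts per library. Summed by class, the 4 AMPA subunits stood at 32.8 to 42.9 CPM per kb, the 5 kainate subunits at 40.5 to 44.3 and the 7 NMDA subunits at 18.7 to 22.2, so that the NMDA sum lay below the AMPA sum in all 5 libraries.

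**Figure D1:**
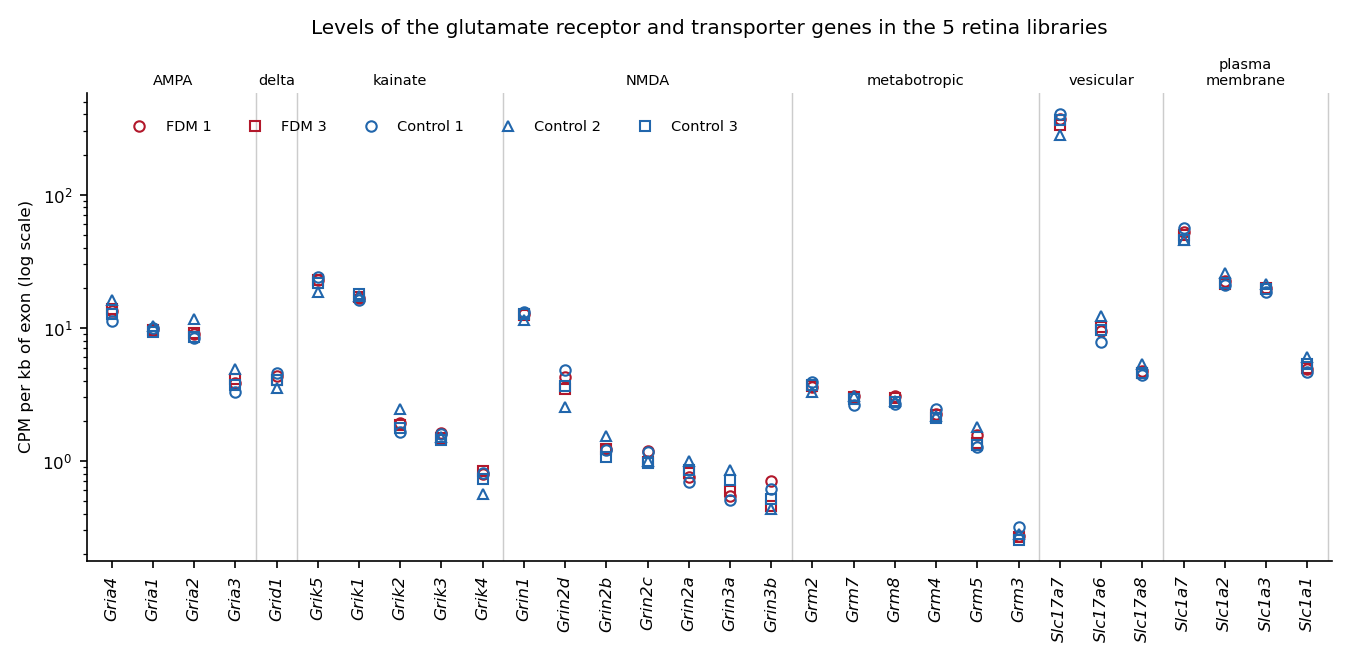
Level of each of the 30 genes in each library (y axis, CPM per kb of exon, log scale), grouped by class and ordered by mean level within each class. Red marks FDM and blue control libraries, and symbols are individual retinas. Slc17a7 lies highest (mean 350.1 CPM per kb) and Grm3 lowest (0.279), and the triangles of Control 2 lie at an edge of many genes while FDM and control symbols intermix.

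No glutamate gene differed between FDM and control retinas at an unadjusted p under 0.05 in the edgeR quasi-likelihood test, in which 1.61% of all 17432 genes tested were called, 0.453% higher and 1.16% lower in FDM. Of the 30 genes, 16 had a positive and 14 a negative log2 fold change. The estimates ran from -0.28 for Grin3a to 0.23 for Grik4, with a median of 0.000297 beside -0.0133 over all genes. The lowest unadjusted p was 0.167 (Grm8). The adjusted p was 0.99999 for each of the genes and was no lower for any gene tested, so no gene of the table passed after Benjamini-Hochberg adjustment, although 281 genes had an unadjusted p under 0.05. DESeq2 called 0.987% of all genes at the unadjusted threshold, 3 of them also after adjustment, and none of the 30. The 95% intervals of the edgeR test, which did not use the pairing of eyes, limit the size of an undetected difference. They lay within a 2-fold change either way for all 30 genes and within 1.5-fold for 25 of them, and the outermost bounds were -0.77 (Grin3a) and 0.75 (Grin3b) on the log2 scale.

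**Figure D2:**
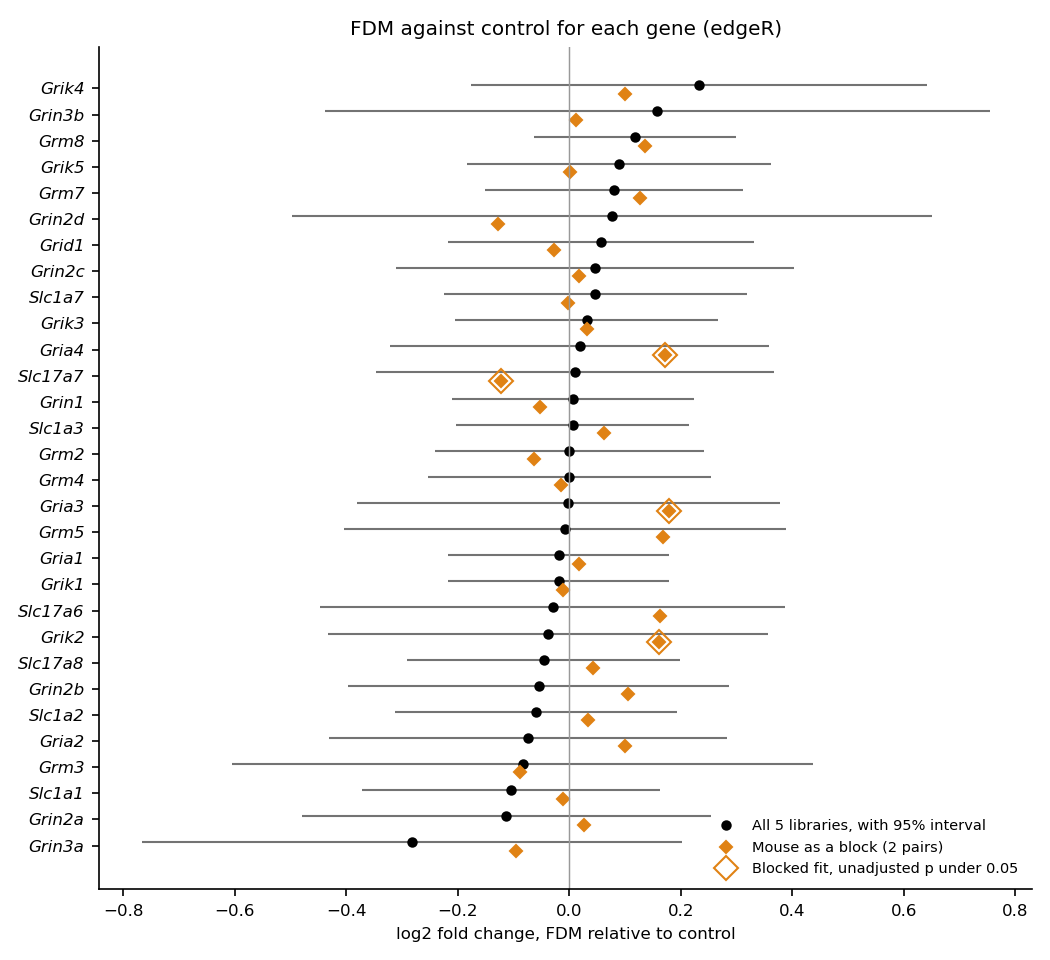
Log2 fold change of FDM relative to control for each gene (x axis), ordered by its value. Black points with bars are the edgeR estimates from all 5 libraries with 95% intervals, all of which cross 0, and orange diamonds are the estimates of the fit blocked by mouse, of which 4 (ringed: Gria3, Gria4, Grik2 and Slc17a7) had an unadjusted p under 0.05.

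Grm8 was the single glutamate gene whose FDM and control values did not overlap. It encodes mGluR8, a presynaptic receptor that inhibits adenylyl cyclase. Its level was 30.2 CPM in FDM 1 and 29.1 in FDM 3, against 26.4, 28.0 and 27.6 in Control 1, Control 2 and Control 3, which is a log2 fold change of 0.12 ± 0.08 (SE; edgeR, unadjusted p = 0.167, 95% interval -0.06 to 0.30). Both FDM retinas lay above all 3 controls, and 3.98% of all genes tested did so. No glutamate gene had both FDM values below all 3 controls, where 6.67% of all genes did.

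Among the AMPA subunits, which form the channels of fast transmission, Gria4 was the most abundant per kb. It measured 83.4 and 87.3 CPM in FDM 1 and FDM 3 and 71.4, 100.9 and 80.5 CPM in Control 1, 2 and 3 (log2 fold change 0.02 ± 0.15). Both FDM values fell between the lowest and the highest control. Gria2, whose RNA is edited to make AMPA receptors nearly impermeable to calcium, measured 138.7 and 141.7 CPM in FDM and 129.3, 180.9 and 132.3 CPM in the controls. Gria3, encoded on the X chromosome, measured 37.5 and 40.5 CPM in FDM and 32.3, 48.1 and 36.7 CPM in the controls. All 3 of these subunits were highest in Control 2 and lowest in Control 1. Gria1 varied least, from 56.3 to 62.5 CPM over the 5 libraries. The estimates of the class ran from -0.07 (Gria2) to 0.02 (Gria4).

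Kainate receptors were represented mainly by Grik5 and Grik1. Grik5 encodes the high-affinity subunit that needs a partner to form a channel, and Grik1 a subunit through which OFF bipolar cells receive cone input. Grik5 measured 118.2 and 117.1 CPM in FDM and 124.5, 96.2 and 111.0 CPM in the controls (log2 fold change 0.09 ± 0.12), and Grik1 112.8 and 115.1 CPM in FDM and 108.7, 116.6 and 121.1 CPM in the controls (-0.02 ± 0.08). For both genes the FDM values lay inside the range of the controls. Grik2 measured 25.6 and 24.7 CPM in FDM and 21.8, 32.4 and 23.2 CPM in the controls. Grik4 had the highest estimate of the 30 genes, with 4.73 and 5.03 CPM in FDM and 4.78, 3.37 and 4.34 CPM in the controls (0.23 ± 0.17, edgeR, unadjusted p = 0.221), and FDM 1 lay below Control 1. Grid1, the delta subunit that acts as a synaptic organizer, measured 26.0 and 24.0 CPM in FDM and 27.0, 21.1 and 23.9 CPM in the controls (0.06 ± 0.12).

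Grin1, the subunit that every NMDA receptor requires, was the most abundant of its class at 122.2 and 120.2 CPM in FDM and 128.2, 110.2 and 123.4 CPM in the controls (log2 fold change 0.01 ± 0.09). Both FDM values again lay inside the control range. Grin2d was the next per kb (3.73 ± 0.867 CPM per kb), ahead of Grin2b, Grin2c (1.06 ± 0.110) and Grin2a (0.819 ± 0.115), and the ranges of neighbours among these last 3 overlapped. Grin2d had the widest control range of the 30 genes, with 32.2, 16.8 and 24.1 CPM in Control 1, 2 and 3 and 28.2 and 23.1 CPM in FDM. Grin3a, a subunit that lowers calcium flow through NMDA receptors, had the lowest estimate of the 30 genes. It measured 6.71 and 7.21 CPM in FDM and 6.23, 10.4 and 8.74 CPM in the controls (-0.28 ± 0.21, edgeR, unadjusted p = 0.213). Control 1 lay below both FDM values, and without this library the estimate was -0.46 (edgeR, unadjusted p = 0.0102, adjusted p = 0.697), in a fit that called 5.42% of all genes. Grin3b was scarce, with 72 to 101 counts per library.

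Among the metabotropic receptors, Grm2 was the most abundant per kb of exon union. This order depends on the length used. The union is 4.894 kb in Grm2 and 9.898 kb in Grm8, but their longest coding transcripts have 4711 and 3856 bases, and Grm8 had the higher CPM. Grm2, a group II receptor coupled to inhibition of adenylyl cyclase, measured 17.6 and 18.0 CPM in FDM and 19.2, 16.2 and 18.0 CPM in the controls (95% interval of the log2 fold change -0.24 to 0.24). Grm4 and Grm7, which like Grm8 belong to group III, lay below Grm2 per kb of exon union, and the Grm4 interval was -0.25 to 0.25. The Grm7 log2 fold change was 0.08 ± 0.10. For Grm7 the FDM values were 18.0 and 17.7 CPM and the controls 15.5, 18.0 and 17.2 CPM, so Control 2 lay between the FDM retinas. Grm5, a group I receptor that activates phospholipase C, measured 15.9 and 13.9 CPM in FDM and 12.9, 18.5 and 13.5 CPM in the controls (-0.01 ± 0.17), with Control 2 highest.

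The vesicular transporter Slc17a7 measured 1993 and 1799 CPM in FDM and 2171, 1520 and 1955 CPM in the controls (log2 fold change 0.01 ± 0.15, edgeR, unadjusted p = 0.946). Control 1 was the highest and Control 2 the lowest library. The summed level of 5 rod markers followed nearly the same order, with 58090 and 53532 CPM in FDM 1 and FDM 3 and 61515, 48685 and 58249 CPM in Control 1, 2 and 3, and its part in the Slc17a7 values was not tested. Slc17a6, which encodes VGLUT2 of ganglion cells, showed the opposite order of the controls, at 50.5 and 54.3 CPM in FDM and 41.9, 66.4 and 52.1 CPM in the controls (-0.03 ± 0.18). Slc17a8, which encodes VGLUT3 of a class of amacrine cells, ranged from 20.9 to 25.2 CPM over the 5 libraries (-0.05 ± 0.10).

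Of the plasma membrane transporters, Slc1a7 measured 175.9 and 166.1 CPM in FDM and 189.8, 152.4 and 154.4 CPM in the controls (log2 fold change 0.05 ± 0.12). Slc1a3, which encodes GLAST, the main glutamate uptake protein of Müller glia, measured 170.9 and 168.8 CPM in FDM and 158.7, 181.9 and 166.8 CPM in the controls (0.01 ± 0.09). Slc1a2, which encodes GLT-1, measured 295.5 and 278.6 CPM in FDM and 276.5, 336.5 and 284.2 CPM in the controls (-0.06 ± 0.11). Slc1a1, which encodes the neuronal transporter EAAC1, measured 40.6 and 41.1 CPM in FDM and 38.4, 49.3 and 44.0 CPM in the controls (-0.10 ± 0.11). In all 4 genes the FDM values lay within the control range.

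The spread of the glutamate genes lay mainly between control retinas. The median log2 range among the 3 controls was 0.36 and that between the 2 FDM retinas 0.06, beside 0.29 and 0.09 over all genes tested. The range over 3 libraries and that over 2 are different quantities and were not tested against each other. In 29 of the 30 genes the range among the controls was larger than the difference between the group means. The share of all genes for which this held was not counted. Over all genes tested the median absolute log2 fold change, 0.07, also lay below the median control range of 0.29. Control 1 and Control 2 were the extreme libraries, in either order, in 19 of the 30 glutamate genes, which held for 33.3% of all genes tested. Control 2 was the highest library and Control 1 the lowest in 12 genes, and the order was inverted in 7.

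Which way a glutamate gene differed between these 2 control retinas went with the base composition of its transcript. The GC share of the longest protein-coding transcript ran from 36.8% (Gria2) to 65.0% (Grin2d), with a median of 47.9% beside 49.9% over all genes tested. All 8 genes under 45% GC (Gria2, Gria3, Gria4, Grik2, Grin2a, Grm5, Slc17a6 and Slc17a8) were higher in Control 2 than in Control 1, by 0.27 to 0.66 on the log2 scale. All 8 genes over 55% GC (Grik5, Grin1, Grin2c, Grin2d, Grin3b, Grm2, Grm4 and Slc17a7) were lower in Control 2, with differences from -0.94 to -0.18. Of the 14 genes between them, 9 were higher in Control 2, and Grin3a had the largest difference, 0.73. Across the 30 genes the Pearson correlation of this difference with GC share was -0.83 and the Spearman correlation -0.83. All 30 points come from the same 2 libraries, and genes are not independent replicates. The relation was not particular to the glutamate genes, since over 14805 genes at 1 CPM or more the correlations were -0.38 and -0.62, and the median difference was 0.27 under 45% GC and -0.23 over 55% GC. For the glutamate genes the medians in these bins were 0.52 and -0.31. In the deposited normalised values the Pearson correlation over the 30 genes was -0.82. The source of this relation was not tested.

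**Figure D3:**
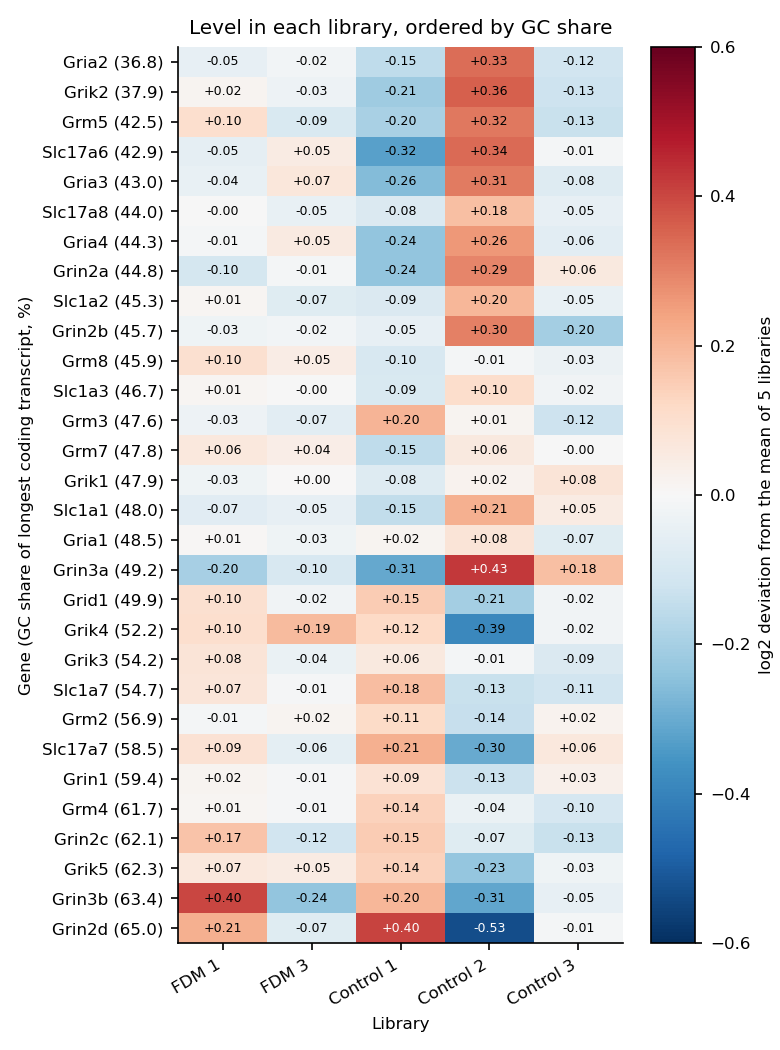
Log2 deviation of each gene (rows, ordered by the GC share of its longest coding transcript, given in %) from its mean over the 5 libraries (columns). Red is above and blue below the mean. Control 2 is above the mean in the 8 genes under 45% GC and below it in the 8 genes over 55% GC, Control 1 shows the opposite signs in these 16 genes, and the FDM libraries lie between -0.24 and 0.40, both for Grin3b.

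**Figure D4:**
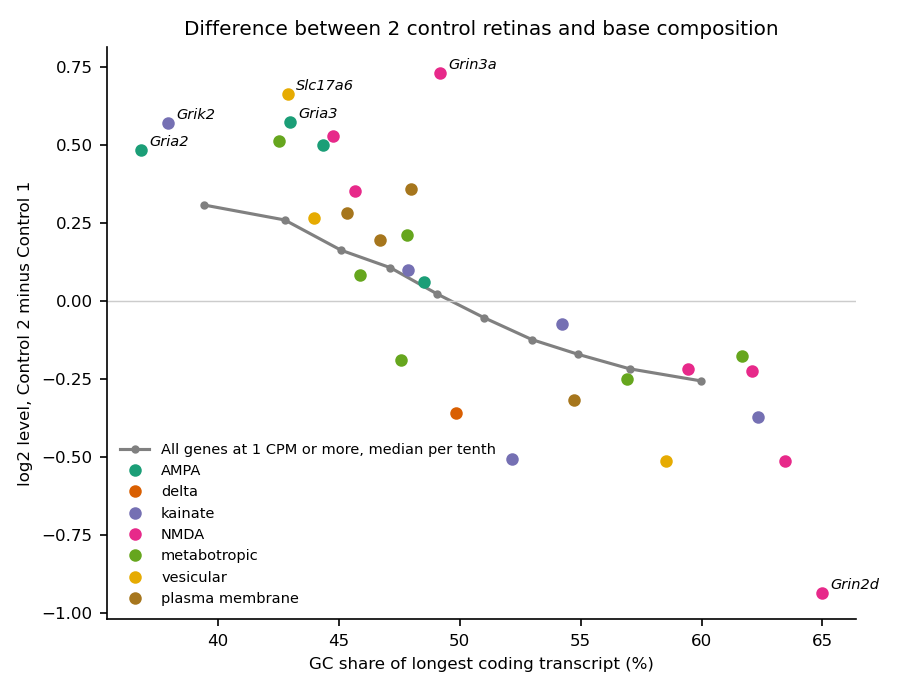
Difference in log2 level between Control 2 and Control 1 (y axis) against the GC share of the longest coding transcript (x axis) for the 30 genes, coloured by class. The grey line joins the medians of 10 equal bins of all 14805 genes at 1 CPM or more and falls from 0.31 to -0.26, and the glutamate genes fall from 0.48 for Gria2 to -0.94 for Grin2d.

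The contrast in base composition is illustrated by 90 bases of coding sequence from Gria2, the gene lowest in GC share, from Grm5, another gene under 45% GC, and from the 3 genes highest in GC share, each taken from the centre of the longest coding stretch within 1 exon. The sequences are of GENCODE M21 transcripts on GRCm38 and read 5′ to 3′ on the sense strand. G and C are in capitals. Gria2 is from exon 11 of 16 at chr3:80707029-80707118 (minus strand), Grm5 from exon 9 of 10 at chr7:88074616-88074705 (plus strand), Grik5 from exon 20 of 20 at chr7:25010539-25010628 (minus strand), Grin3b from exon 3 of 9 at chr10:79974152-79974241 (plus strand) and Grin2d from exon 12 of 12 at chr7:45833391-45833480 (minus strand).
Gria2: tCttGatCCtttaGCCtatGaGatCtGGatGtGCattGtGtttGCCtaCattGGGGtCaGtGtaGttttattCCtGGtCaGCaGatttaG
Grm5: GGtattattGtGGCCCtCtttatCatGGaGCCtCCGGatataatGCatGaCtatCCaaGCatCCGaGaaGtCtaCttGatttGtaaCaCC
Grik5: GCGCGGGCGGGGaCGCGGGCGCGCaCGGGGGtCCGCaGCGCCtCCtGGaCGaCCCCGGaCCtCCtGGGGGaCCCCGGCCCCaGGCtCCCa
Grin3b: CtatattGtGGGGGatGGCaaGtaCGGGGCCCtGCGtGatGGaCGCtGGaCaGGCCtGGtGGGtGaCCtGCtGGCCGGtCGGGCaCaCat
Grin2d: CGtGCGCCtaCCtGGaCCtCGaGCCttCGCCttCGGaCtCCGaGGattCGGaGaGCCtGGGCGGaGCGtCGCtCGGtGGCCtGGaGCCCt
G and C make up 38 and 39 of the 90 bases in Gria2 and Grm5 and 75, 58 and 63 in Grik5, Grin3b and Grin2d. The stretch of Grik5 is 83.3% GC against 61.7% over its coding sequence, and that of Grm5 43.3% against 51.6%. These stretches thus overstate the contrast between the coding sequences of Grm5 and Grik5. The noncoding bases of the low-GC transcripts were lower in GC than their coding sequence. In Gria2 the coding sequence is 44.7% GC and the 7722 noncoding bases of the transcript 34.1%. In Grm5 the values are 51.6% and 35.6%. In Grin2d the coding sequence is 67.3% GC and the 1462 noncoding bases 58.7%. Over the 30 genes GC share and log2 transcript length had a Pearson correlation of -0.43. The difference between Control 2 and Control 1 correlated with log2 transcript length at 0.45 (Pearson), and the parts of GC share and length were not separated. The log2 fold changes of FDM relative to control correlated with GC share at 0.43 (Pearson) and 0.56 (Spearman), beside 0.11 and 0.27 over the 14805 genes. Between the 2 eyes of a mouse the sign was opposite over the 30 genes. FDM 1 minus Control 1 correlated with GC share at -0.62 (Pearson) and -0.71 (Spearman), and FDM 3 minus Control 3 at -0.29 and -0.34.

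Within the mice, the FDM eye was compared with its own control eye. The FDM eye was higher in both mice for 13 of the 30 glutamate genes and lower in both for 4, beside 24.6% and 30.4% of all genes tested. Gria3 was higher by 0.22 on the log2 scale in mouse 1 and by 0.14 in mouse 3, Gria4 by 0.23 and 0.12, and Grik2 by 0.23 and 0.09. Slc17a7 differed by -0.12 and -0.12. Gria2, Grm5, Grm7, Grm8 and Slc17a6 were also higher in the FDM eye of both mice, and Grin1, Grin2d and Grm2 were lower in both. Grin3a had opposite signs, with 0.11 in mouse 1 and -0.28 in mouse 3.

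**Figure D5:**
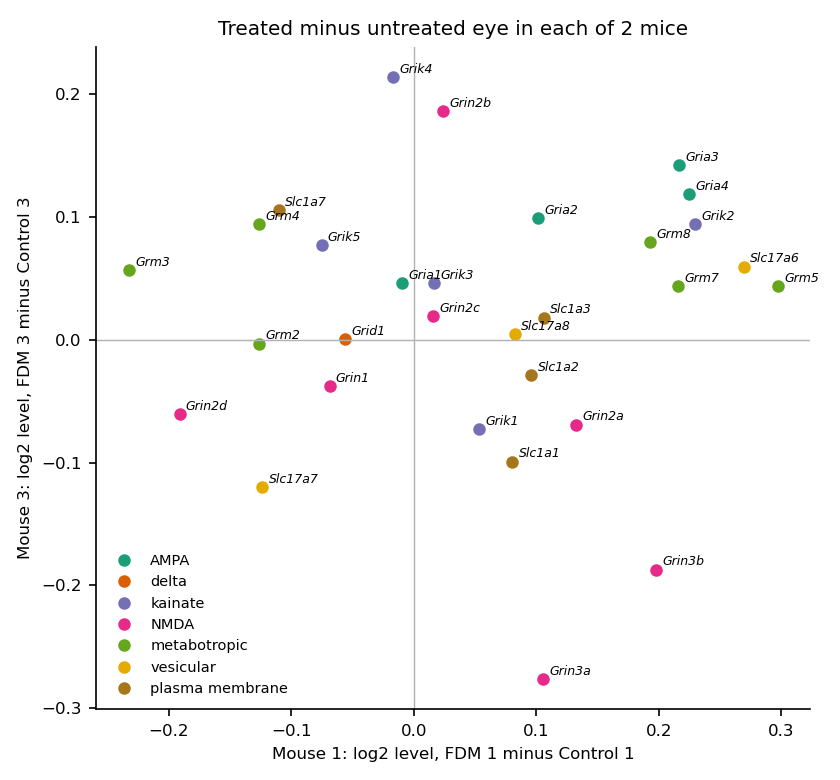
Log2 level of the FDM eye minus the control eye in mouse 1 (x axis) and mouse 3 (y axis) for the 30 genes, coloured by class. Gria2, Gria3, Gria4, Grik2 and Grm8 lie in the upper right, higher in the FDM eye of both mice, and Slc17a7 in the lower left at -0.12 in both.

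Blocking by mouse gives a fit in which Control 2 contributes nothing to the FDM difference and 1 residual degree of freedom is left. In it, 4 of the 30 genes had an unadjusted p under 0.05, where 7.23% of all genes tested did (edgeR). In this edgeR fit Gria3 (log2 fold change 0.18 ± 0.06, unadjusted p = 0.0181, adjusted p = 0.619), Gria4 (0.17 ± 0.06, unadjusted p = 0.0248, adjusted p = 0.635) and Grik2 (0.16 ± 0.06, unadjusted p = 0.0328, adjusted p = 0.654) were higher in FDM. Slc17a7 was lower in FDM (-0.12 ± 0.05, edgeR, unadjusted p = 0.0426, adjusted p = 0.683). None of the 30 genes passed after adjustment. The labels' own numbers, which pair FDM 3 with Control 2, gave a blocked fit that called none of the 30 genes and 2.52% of all genes, and a fit without Control 2 and without a block called none of the 30 and 3.16% of all genes. The estimates without Control 2 were as large as in the blocked fit for Gria3 (0.19, edgeR, unadjusted p = 0.0696), Gria4 (0.18, unadjusted p = 0.0712) and Grik2 (0.17, unadjusted p = 0.0636), and Slc17a7 stood at -0.11 (edgeR, unadjusted p = 0.219). Both fits take the FDM difference from FDM 1, FDM 3, Control 1 and Control 3, so the likeness of their estimates follows from the design. In the unblocked fit of all 5 libraries, Control 2 included, Gria3 (-0.00145 ± 0.16), Grik2 (-0.04 ± 0.17) and Slc17a7 (0.01 ± 0.15) have the opposite sign, with estimates smaller than their SE. In all, 17 of the 30 genes changed sign between that fit and the blocked one. The 4 genes called in the fit blocked by mouse had GC shares under 45% or over 55%, and the part of base composition in these calls was not tested. Gria3, Gria4 and Grik2 are among the 8 genes under 45% GC, all 8 of which had a positive estimate in the blocked fit (median 0.16), as did 67.6% of all genes in that range (median 0.04), and Slc17a7 is among the 8 genes over 55% GC, of which 3 had a positive estimate (median -0.03), as did 28.8% of all genes there (median -0.04). When the block was fitted in edgeR with a GC correction of each library, 7.85% of all genes were called, and Gria3 (0.14, edgeR, unadjusted p = 0.0261) and Gria4 (0.14, unadjusted p = 0.0252) were among them. Grik2 (0.11, edgeR, unadjusted p = 0.0825) and Slc17a7 (-0.08, unadjusted p = 0.170) were not. The correction left part of the GC relation in place, since the difference between Control 2 and Control 1 still correlated with GC share over the 30 genes at -0.55 (Pearson) and -0.64 (Spearman). With the GC correction and no block, no glutamate gene had an unadjusted p under 0.05 while 1.85% of all genes did, and the median SE of the 30 genes fell from 0.13 to 0.09.

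Subunit and transporter proportions, computed per kb in each library, differed between the group means by less than the range of the controls, in which the unpaired Control 2 was an extreme for every proportion except Grin2a to Grin2b. Gria2 made up 24.9% and 24.8% of the AMPA sum in FDM and 25.3%, 27.1% and 24.8% in the controls (exact permutation test, two-sided, p = 0.7). The ratio of Grin2a to Grin2b, whose relative amounts set the decay of NMDA currents, was 0.622 and 0.660 in FDM and 0.577, 0.653 and 0.788 in the controls (exact permutation p = 0.9). Slc17a7 made up 96.3% and 95.8% of the vesicular transporter sum in FDM and 97.1%, 94.1% and 96.2% in the controls (exact permutation p = 0.9). The ratio of Slc1a2 to Slc1a3 was 1.12 and 1.07 in FDM and 1.13, 1.20 and 1.11 in the controls (exact permutation p = 0.4), and that of the NMDA sum to the AMPA sum was 0.593 and 0.542 in FDM and 0.677, 0.436 and 0.596 in the controls (exact permutation p = 0.9). With 2 against 3 libraries the smallest p this test allows is 0.1, so none could have passed 0.05. The level of such proportions depends on the lengths used. For Slc1a2 and Slc1a3 the exon unions are 13.133 and 8.537 kb, but the longest coding transcripts have 11595 and 4163 bases. Within the mice, 3 of the 5 proportions were lower in the FDM eye of both, without a test. The NMDA to AMPA ratio differed by -0.0840 in mouse 1 and -0.0535 in mouse 3, the Slc17a7 share by -0.723 and -0.429 percentage points and the Slc1a2 to Slc1a3 ratio by -0.00810 and -0.0351. The other two had opposite signs in the 2 mice.

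The proteins that work with these receptors and transporters were examined in 5 lists of 63 genes, all of which were tested. None of the 63 had an unadjusted p under 0.05 in either direction in the edgeR test without the block. The 20 auxiliary subunits and interactors of AMPA and kainate receptors had a median log2 fold change of 0.01, the 15 postsynaptic scaffolds 0.01, the 11 genes of glutamate metabolism and glutamine transport -0.03, the 7 remaining receptor and transporter genes of the families 0.10 and the 10 metabotropic signalling genes 0.02, beside -0.0133 over all genes. The lowest p was that of Nptx1, a secreted pentraxin that clusters AMPA receptors, with 105.2 and 111.2 CPM in FDM and 124.2, 119.2 and 117.3 CPM in the controls (-0.15 ± 0.08, edgeR, unadjusted p = 0.0996). Both FDM values of Nptx1 lay below all 3 controls, as they did for 5 of the 63 genes, beside 6.67% of all genes tested. In the other lists the lowest p belonged to Homer1, a scaffold that binds group I metabotropic receptors (-0.19 ± 0.16, edgeR, unadjusted p = 0.273), and Slc38a5, a glutamine transporter (-0.26 ± 0.19, unadjusted p = 0.214). The others were Slc1a6, the transporter EAAT4 (-0.19 ± 0.13, edgeR, unadjusted p = 0.172), and Rgs11, which speeds the G protein cycle behind mGluR6 (0.10 ± 0.10, unadjusted p = 0.339). Grm6 itself measured 226.5 and 212.2 CPM in FDM and 225.2, 190.3 and 193.5 CPM in the controls (0.11 ± 0.10, edgeR, unadjusted p = 0.304). At 38.7 CPM per kb it lay above every metabotropic receptor of the 30 genes. In the fit blocked by mouse, 7 of the 63 list genes had an unadjusted p under 0.05, 5 higher and 2 lower, beside 7.23% of all genes.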

How the data were processed

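Poly-A RNA of 5 retinas was sequenced as 50-base read pairs with a kit that does not mark strand. The authors trimmed reads with Trimmomatic 0.39, quantified transcripts with Salmon 1.10.1, per the labels, and deposited gene-level estimated counts as whole numbers, with a second table of DESeq2-normalised signal that the authors scaled by factors differing between genes. The paper gives GRCm38 as build. Groups came from the labels. The second FDM library has the number 2 in the labels and 3 in the column name and the study's tables, and the latter was used to pair eyes.

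Of 33636 rows, the 17432 exceeding 10 counts in 2 or more libraries entered the test in edgeR 4.0.16 (R 4.3.3; TMM, quasi-likelihood test, no covariate), against the authors' unadjusted threshold of 0.05, with Benjamini-Hochberg adjustment over all genes tested. SE is the log2 fold change divided by the root of the F statistic. The scripts were tested on simulated data. Same-numbered libraries are the eyes of 1 mouse by the study's tables. Over 14815 genes their deviations from the group means correlated at 0.34 (FDM 1 with Control 1) and 0.14 (FDM 3 with Control 3), while FDM 3 with Control 2, the pair of the label numbers, gave 0.21. With 2 FDM libraries the deviations of one are the negative of the other's, so these values do not settle the pairing, which rests on the study's numbering. Retinas are separate samples, but with 3 mice p-values measure the spread of few animals. Gene models, exon lengths, GC shares and sequences are of GENCODE M21 on GRCm38, in which 33585 of 33635 identifiers were found. Exons of 15 of the 30 genes are overlapped by another gene, 9 of them by one on the opposite strand, whose reads a kit without strand cannot separate. The other 6, overlapped on the same strand, are Gria2, Gria3, Gria4, Grid1, Grik4 and Grm8. The part of such overlaps in the values was not tested. The GC correction fitted a lowess curve (span 0.3) of each library's log2 deviations on GC share and used it as an offset. Alternatives were DESeq2 1.42.0 in place of edgeR, limma 3.58.1 on the log2 of the deposited normalised signal plus 1 or 0.1, other scaling factors and filters, fits blocked by mouse or by label number, and the removal of each library in turn.

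Every glutamate gene is accounted for. Values per library were planned for genes with an unadjusted p under 0.05, genes whose groups did not overlap and the most abundant gene per kb of each class, and for each further list the gene with the lowest p. Values for other genes were added after they were seen. The genes and lists were chosen with earlier results of these data known. Counts per library were lowest in Grm3 and Grin3b, where sampling error weighs most. They were also modest in Grik4 (191 to 242), Grin2c (229 to 287) and Grin3a (249 to 591). The sequence of 1 stretch is not reported here.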

Additional observations from a re-analysis of the deposited data

How the results depend on the processing

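The count of glutamate genes with an unadjusted p under 0.05 was 0 without the block and stayed 0 under DESeq2 size factors, library totals, DESeq2, limma with either pseudocount, both other filters, the authors' factors as offsets, the GC correction and the block by the numbers of the labels, which differ from the study's mouse numbers. With the replicate block by mouse it was 4, and 2 when the GC correction was added. In these fits the Gria3 estimate moved from -0.00145 to 0.18 and 0.14 (log2). With the block and no correction, Grik2 moved from -0.04 to 0.16 and Slc17a7 from 0.01 to -0.12, so estimates near 0 changed sign. The count of genes in the 5 further lists was 0, and it rose to 7 with the block by mouse, to 6 with block and GC correction and to 1 with the GC correction alone. Leaving out 1 library gave 0 to 1 glutamate genes, the 1 being Grin3a without Control 1, and 0 to 3 genes of the lists, with 3 without Control 2 and 1 without Control 1. The median log2 fold change of the 30 genes lay between -0.03 and 0.04 in every alternative and differed from the reported one by less than the spread of library medians. Signs were less stable, since 17 genes changed sign with the block by mouse, 16 without Control 2, 11 without FDM 1 9 with limma at either pseudocount, 15 with block and GC correction and 8 each with the GC correction and with the authors' factors, against 5 or fewer with scaling by library totals or size factors, the other filters, DESeq2, the block by label numbers and without Control 1, Control 3 or FDM 3. Where 1 FDM library was left, it was assumed to vary like the others. The GC correction, the authors' factors, and tests with 1 FDM library were chosen after seeing the data. The 5 proportions moved by less than the spread between replicates in the deposited normalised values and without any 1 library. That spread includes Control 2, and some differences still changed sign. The Slc17a7 share difference went from 0.268 to -0.576 percentage points without Control 2. Grin2a to Grin2b went from -0.0312 to 0.0266 without Control 3, and NMDA to AMPA from -0.00188 to 0.0518 without Control 1. The Gria2 share and the Slc1a2 to Slc1a3 ratio kept their sign. Low counts limit Grm3 and Grin3b, and the Grin3b estimate was -0.19 without FDM 1 and 0.44 without FDM 3.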
